A study of Mus musculus with 2 samples.

Results

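Zic1, Zic2, Zic4 and Zic5, members of the Zic family of zinc finger transcription factors, were followed in RNA from the germinal layers of the embryonic mouse cortex, its ventricular and subventricular zones (VZ–SVZ). The 4 genes were taken by symbol from the 21896 genes in the files, and each had 1 RefSeq transcript. The control library came from Rcor2fl/fl embryos, which carry floxed alleles of the co-repressor gene Rcor2 and whose labels name no Cre, and the other library from Rcor2cko embryos, in which Nestin-driven Cre deletes the floxed exons in neural progenitors across the nervous system. Both came from crosses of Rcor2fl/+NesCre mice. Both were of the C57/BL6 strain at E13.5, there was 1 library per genotype, and the number of embryos behind a library was not given in the sources used here. Every comparison below is therefore one between 2 libraries, without a replicate check and without a test of the genotypes. By the level of Xist, given below, the 2 libraries also differed in embryo sex. The FPKM values were scaled to 18841070 fragments in the control and 25481460 in the Rcor2cko library.

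Zic proteins bind DNA through tandem zinc fingers that resemble those of the Gli factors, the transcriptional effectors of hedgehog signalling, and they can act together with Gli proteins. In the developing forebrain they are known for expression along the dorsal midline, in the septum, in the cortical hem and the Cajal-Retzius cells that leave it, and in the meninges, and they are low in most of the lateral cortex. In the mouse, Zic1 lies head to head with Zic4, and Zic2 with Zic5, so that the partners of each pair start close to each other and are read in opposite directions.

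In mm9, Zic1 lies on chromosome 9 from 91255182 to 91260637 on the minus strand, and Zic4 from 91263809 to 91284186 on the plus strand of the same chromosome. Zic5 lies on chromosome 14 from 122858381 to 122864880 on the minus strand, and Zic2 from 122874605 to 122879550 on the plus strand. These are the loci in the deposited values, and strands are from the GENCODE vM1 annotation of the same assembly. The start sites of Zic1 and Zic4 are 3172 bp apart and those of Zic5 and Zic2 9725 bp. In GENCODE, which holds 12 transcripts of Zic4, the gene bodies of Zic1 and Zic4 overlap over 3398 bp, whereas the RefSeq models behind the values do not overlap. Whether strand was used in the authors' counting was not given in the sources used here.

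The coding sequences of the members resemble each other most in the zinc finger domain, which bears on how well reads can be assigned to one member. For that reason the 60 bases of Zic1 with the highest summed identity to the other members, aligned without gaps, are shown. The stretch was picked for its likeness, so it is a worst case, not a typical one, for telling the members apart. Its first bases are the longest run shared by Zic1 and Zic4. It is given 5′ to 3′ on the coding strand, from GENCODE vM1, with capitals at the bases that differ from Zic1. It starts at base 729 of the coding sequence of Zic1, 819 of Zic2, 435 of Zic4 and 1173 of Zic5, counted from 1 at the start codon.
Zic1: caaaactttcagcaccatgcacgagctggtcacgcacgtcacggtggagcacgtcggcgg
Zic4: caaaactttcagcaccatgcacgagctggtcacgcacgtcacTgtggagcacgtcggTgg
Zic2: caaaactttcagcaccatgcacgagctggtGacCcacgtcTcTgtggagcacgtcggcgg
Zic5: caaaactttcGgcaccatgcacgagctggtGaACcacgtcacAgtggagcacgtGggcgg
In this stretch Zic4 differed from Zic1 at 2 bases, Zic2 at 4 and Zic5 at 6. The longest run shared without a mismatch was 42 bases, between Zic1 and Zic4, followed by 35 bases between Zic1 and Zic2. No window of 50 coding bases was shared between members, and of the windows of 25 bases 51 of 1320 in Zic1, 32 of 1566 in Zic2, 27 of 981 in Zic4 and 2 of 1845 in Zic5 were. The read length was not given in the sources used here.

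Zic1 had the highest FPKM of the members in the control and the largest fold change. It was at 5.52 FPKM (fragments per kilobase of transcript, scaled to the mapped fragments of a library) in the Rcor2fl/fl library, with a 95% interval in the deposited values from 4.36 to 6.67, and at 1.69 FPKM (1.15 to 2.24) in that of Rcor2cko. The control library was the higher one, and the intervals did not overlap. The log2 change of FPKM + 0.1, Rcor2cko over Rcor2fl/fl, was -1.65, that is 3.13-fold lower. Because low values are whole multiples of what 1 fragment is worth, the fragments could be counted back, which gave 328 fragments in the control and 136 in the Rcor2cko library. The log2 ratio of fragments, without pseudocount, was -1.70 with a 95% exact interval (Clopper-Pearson) from -2.00 to -1.41. Such intervals cover counting error only and say nothing of the spread between animals.

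Zic4, the partner of Zic1, was the least abundant member. It was at 0.436 FPKM (0.252 to 0.621) in the control and 0.202 FPKM (0.102 to 0.302) in the Rcor2cko library, from 32 and 20 fragments. The control was again higher, but here the deposited intervals overlapped. The log2 change of FPKM + 0.1 was -0.83, or 1.78-fold lower, and the log2 ratio of fragments was -1.11 with an interval from -1.99 to -0.26. At this level the pseudocount takes up part of the change, and Zic4 stayed below the 1 FPKM that a gene had to reach in at least 1 library to enter the counts of changed genes.

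Zic2, in humans a gene in which loss of function causes holoprosencephaly, had the smallest change of the 4. It was at 4.98 FPKM (3.83 to 6.12) in the control and 2.99 FPKM (2.16 to 3.83) in the Rcor2cko library, from 260 and 211 fragments. The control was higher, and the intervals only just missed each other. The log2 change was -0.71, or 1.64-fold lower, and the log2 ratio of fragments was -0.73, with an interval from -1.0 to -0.47 that includes 1.5-fold. With a pseudocount of 1 the change was -0.58, under 1.5-fold.

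Zic5, the partner of Zic2, was at 1.29 FPKM (0.794 to 1.78) in the control and 0.504 FPKM (0.271 to 0.736) in the Rcor2cko library, from 53 and 28 fragments. The intervals did not overlap. The log2 change was -1.20, or 2.29-fold lower, and the log2 ratio of fragments was -1.35 with an interval from -2.07 to -0.66.

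**Figure D1:**
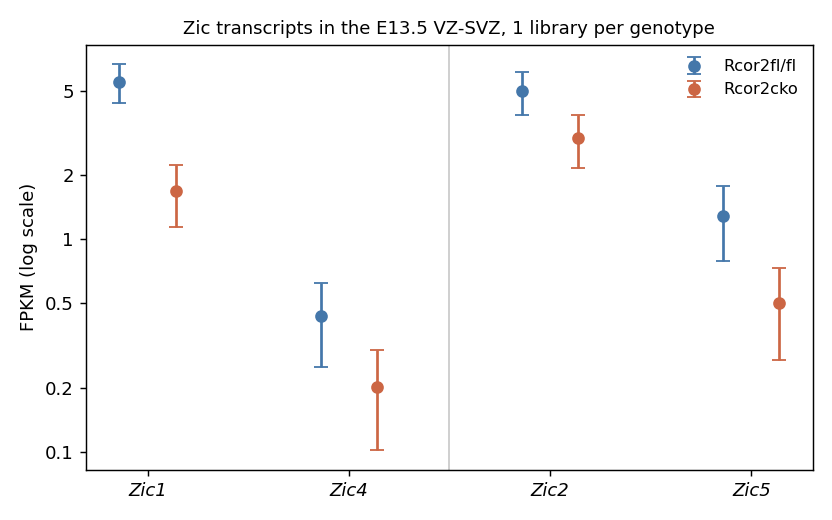
FPKM on a log axis of the Zic genes in the Rcor2fl/fl (blue) and Rcor2cko (orange) libraries, 1 library each, with the partners of each pair side by side and bars for the 95% FPKM intervals of the deposited values. All 4 members have the lower value in the Rcor2cko library, and the bars overlap for Zic4 alone.

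A gene was counted as tested if either library held it at 1 FPKM or more. Of the 11777 tested genes, 1.76% fell by more than 1.5-fold from the control to Rcor2cko. Of the 4 members, 3 entered this count, and Zic1, Zic2 and Zic5 were each among the genes lower. Zic5 entered it through the control library alone, where it is high, so that the filter itself favours a call as lower, and its rank is to be read with that. Zic1 and Zic2 reached 1 FPKM in both libraries, and among the 11331 genes that did so 1.13% were lower by more than 1.5-fold. Counted from the lowest log2 change, Zic1 was number 21, Zic5 number 39 and Zic2 number 132 of the 11777 genes. Falls of this size were more common among tested genes with low means. They made up 2.31% of the tested genes with a mean of 2 to 5 FPKM, where Zic1 and Zic2 lie, and 19.6% of those with a mean under 1 FPKM, where Zic5 lies. A tested gene with a mean under 1 FPKM has at least 1 FPKM in 1 library and less in the other. The filter itself therefore selects changed genes there. When the deposited intervals were also required not to overlap, the same 3 members passed, against 0.688% of all tested genes. Fragments could be recovered for 12093 genes with at least 1 fragment, and the interval of the log2 ratio lay wholly below 0 for all 4 members and for 17.2% of these genes. It lay wholly below a 1.5-fold fall for Zic1 and Zic5 and for 0.645% of the genes. The median log2 change over the tested genes was -0.03.

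**Figure D2:**
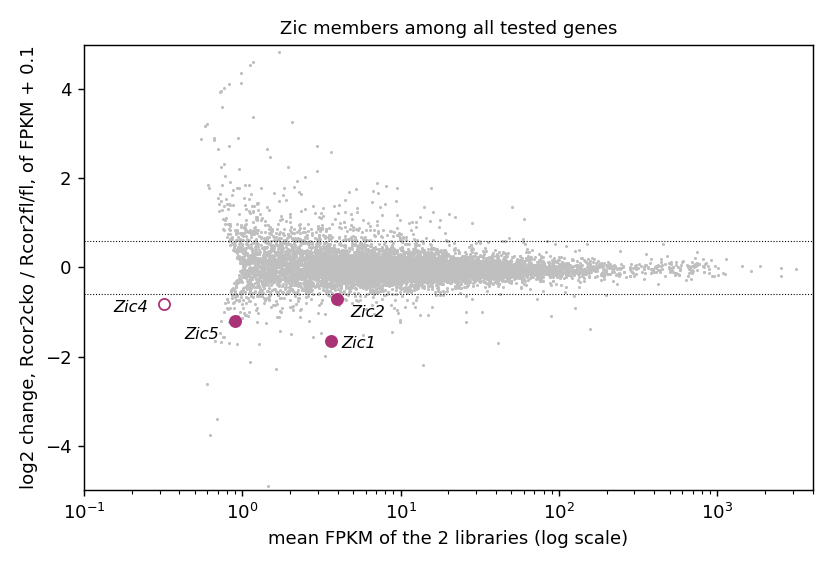
Log2 change of FPKM + 0.1 against the mean FPKM of the 2 libraries (log axis) for the tested genes (grey), with dotted lines at 1.5-fold. Zic1, at a mean of 3.61 FPKM, lies below most genes at that level, and Zic2, at 3.99 FPKM, lies just past the lower line. Zic5 lies at a mean under 1 FPKM, where the filter itself selects changed genes, and Zic4 (open) did not reach the filter. The 14 genes beyond a log2 change of 5 are outside the axis.

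The levels were then set in order within each library. In the control, the levels of Zic1 and Zic2 could not be told apart by their intervals, Zic5 followed, with an interval clear of both, and Zic4 was lowest, below the interval of Zic5. In the Rcor2cko library the value of Zic2 was above that of Zic1, but their intervals overlapped between 2.16 and 2.24 FPKM, so that no change of order was established. Zic5 and Zic4 came after them, with intervals that overlapped each other. Zic1 made up 45.2% of the summed FPKM of the 4 members in the control and 31.4% in the Rcor2cko library, while the share of Zic2 went from 40.7% to 55.5%. The sum itself went from 12.2 to 5.39 FPKM, a ratio of 2.26.

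Within a pair, the partners were compared by the ratio of one to the other in each library. The scaling of a library cancels in this ratio where no pseudocount is added. Zic1 was 12.6 times as high as Zic4 in the control and 8.39 times in the Rcor2cko library. On the log2 scale of FPKM + 0.1 this ratio changed by -0.82, and from fragments by -0.59, with an exact conditional interval from -1.50 to 0.35. Zic2 was 3.87 times as high as Zic5 in the control and 5.94 times in the Rcor2cko library. That ratio changed by 0.48 on FPKM + 0.1 and by 0.62 from fragments, with an interval from -0.13 to 1.39. Both intervals included 0, so that unequal changes of the partners were not detectable at this depth, and both also allow a difference of more than 1.5-fold.

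Across the pairs, Zic1 and Zic2, which had like levels in the control, differed in how far they fell. Their ratio was 1.11 in the control and 0.566 in the Rcor2cko library, a change of -0.97 from fragments with an interval from -1.37 to -0.57. Of the 6 possible pairs of members, this was the 1 whose interval did not include 0. The intervals are 95% each and were not adjusted for the 6 comparisons.

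**Figure D3:**
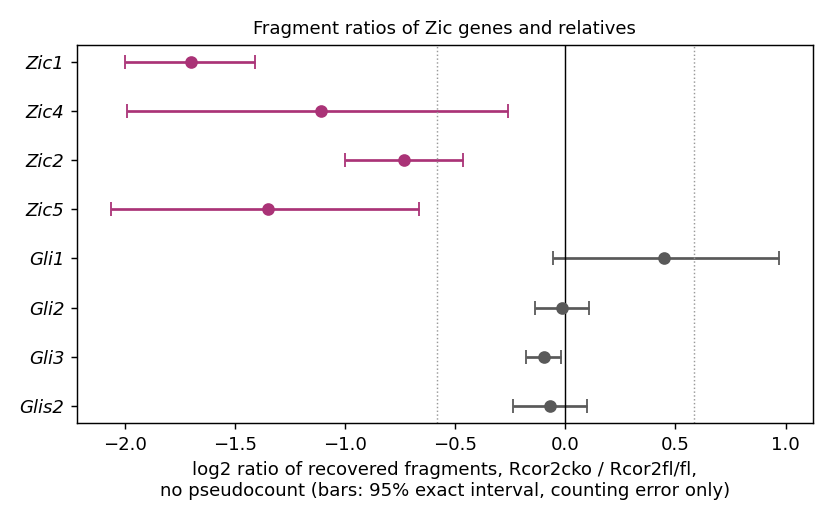
Log2 ratio of recovered fragments, Rcor2cko over Rcor2fl/fl, without pseudocount, for the 4 members (purple) and for Gli1, Gli2, Gli3 and Glis2 (grey), with bars for 95% exact intervals of counting error and dotted lines at 1.5-fold. The intervals of the 4 members lie below 0, while those of Gli1, Gli2 and Glis2 include it.

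The Gli genes, whose zinc fingers are related to those of the Zic family, stayed within 1.5-fold. Gli1, a target of hedgehog signalling as well as one of its effectors, had 0.781 FPKM in the control against 1.07 FPKM in Rcor2cko (log2 change 0.41). It thus reached 1 FPKM in Rcor2cko alone. From its 51 and 94 fragments, the interval of the fragment ratio ran from -0.06 to 0.97, which includes 0 and also a rise of more than 1.5-fold. Gli2, mainly an activator, was at 7.88 and 7.80 FPKM, a change of -0.01. Gli3, which as a repressor restrains hedgehog targets in the dorsal telencephalon, was at 14.7 and 13.7 FPKM, a change of -0.10 with an interval of the fragment ratio from -0.18 to -0.02. Among 14 genes of the hedgehog pathway, which include these 3, 11 were tested and none was past 1.5-fold in either direction, with a median log2 change of -0.12. Its most abundant gene, the co-receptor Cdon, was at 45.7 and 37.2 FPKM.

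Promoter sequences were looked at because the 4 members moved together. The RefSeq promoter table holds Zic1, Zic4 and Zic5 but not Zic2. The 250 bases before each start are given 5′ to 3′ on the strand of the gene, in GRCm38.p6 rather than mm9. Capitals mark the letters GGGCGG (a GC box), CCAAT and CACGTG (an E-box), searched on both strands.
Zic1, chr9:91365769-91366018, minus strand: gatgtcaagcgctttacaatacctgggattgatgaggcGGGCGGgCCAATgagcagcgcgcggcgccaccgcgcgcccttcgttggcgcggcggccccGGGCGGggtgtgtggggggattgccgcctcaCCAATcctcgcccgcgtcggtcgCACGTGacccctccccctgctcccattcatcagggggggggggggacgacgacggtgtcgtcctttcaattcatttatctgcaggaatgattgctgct
Zic4, chr9:91368722-91368971, plus strand: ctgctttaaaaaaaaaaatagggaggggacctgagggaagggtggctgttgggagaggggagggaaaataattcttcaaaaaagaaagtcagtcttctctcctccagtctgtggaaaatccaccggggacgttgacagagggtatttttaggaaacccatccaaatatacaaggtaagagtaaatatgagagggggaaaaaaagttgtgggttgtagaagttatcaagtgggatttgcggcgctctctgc
Zic5, chr14:122465659-122465908, minus strand: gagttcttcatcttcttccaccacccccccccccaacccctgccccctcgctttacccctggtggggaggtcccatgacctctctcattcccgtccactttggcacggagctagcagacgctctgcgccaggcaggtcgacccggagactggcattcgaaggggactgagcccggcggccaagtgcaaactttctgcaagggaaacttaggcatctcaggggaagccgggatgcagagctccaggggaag
The Zic1 window held 2 matches to GGGCGG, 2 to CCAAT and 1 to CACGTG, and the windows of Zic4 and Zic5 held none of the 3. Of 32851 promoter windows of this length in the table, 32.7% held GGGCGG, 33.8% CCAAT and 6.02% CACGTG. The Gli core GACCACCCA was in none of the 3 windows and in 0.225% of all. G and C made up 66.0% of the Zic1 window, 62.4% of that of Zic5 and 44.4% of that of Zic4, beside a median of 52.4% over all windows. The Zic1 window had 27 CG dinucleotides, that of Zic5 11 and that of Zic4 4, and the median window 6. The promoters of the partners Zic1 and Zic4 thus differed in base composition, and the matches are letters in a window, not sites shown to be bound.

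Genes around the 2 loci were listed to see whether their neighbours changed as well, a question chosen after the values of the members had been seen. Around Zic1 and Zic4, 4 other genes of the files lay within 1 Mb and none of them reached 1 FPKM in either library. Around Zic2 and Zic5 there were 15, of which 7 were tested. Of these, 1 was lower by more than 1.5-fold and none higher, beside 1.76% lower and 3.79% higher among all tested genes. That gene was Gm5089, a predicted gene whose GENCODE model lies 5680 bp from that of Zic5 on the same strand. It was at 1.45 FPKM (0.386 to 2.50) in the control and 0.636 FPKM (0 to 1.3) in the Rcor2cko library, intervals that overlap. Gm5089 thus passed the filter of 1 FPKM only through the control, where it is high, so that the filter itself favours a call as lower. The other 6 lay between a log2 change of -0.33, for the mitochondrial carboxylase subunit Pcca, and 0.37, for the membrane protein gene Tmtc4.

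**Figure D4:**
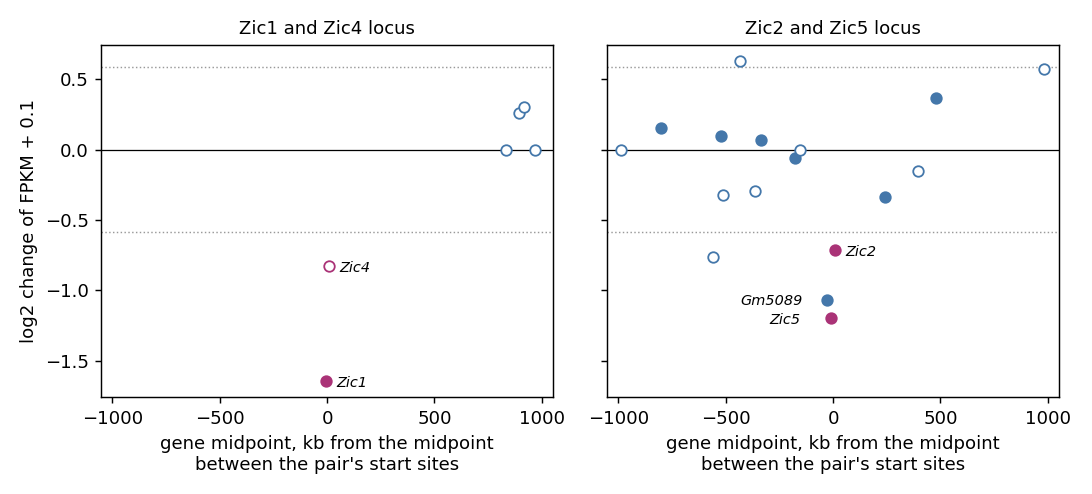
Log2 change of FPKM + 0.1 of genes within 1 Mb of each pair, against the distance in kb of a gene's midpoint from the midpoint between the pair's start sites; members are purple, filled symbols are tested genes, open symbols genes under 1 FPKM in both libraries, and dotted lines mark 1.5-fold. Among tested neighbours, Gm5089 beside Zic5 is the 1 below the lower line, and it reached 1 FPKM in the control alone.

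The tissues in which Zic genes are known to be expressed were then followed through lists of marker genes. Among all tested genes 3.79% were more than 1.5-fold higher and 1.76% lower. Of those at 1 FPKM or more in both libraries, 2.31% were higher and 1.13% lower. A gene that passed the filter in a single library had to be high there, so the calls that rest on such genes are given apart. Genes of the cortical hem and of Cajal-Retzius cells moved in the direction of the Zic members. Of 22 genes listed, 10 were tested, 9 were lower by more than 1.5-fold and none was higher, with a median log2 change of -1.01. Of the 9, 3 had passed the filter only through the control, where they are high, and the other 6 were among 7 listed genes that reached 1 FPKM in both libraries. The median over all 22 was -0.70. The listed genes summed to 80.8 FPKM in the control and 38.5 FPKM in the Rcor2cko library. In bulk RNA, fewer cells of a type and less RNA per cell cannot be told apart.

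All 6 tested Cajal-Retzius genes were lower. Reln, which encodes the secreted glycoprotein reelin and was the most abundant gene of the list, had 36.5 and 15.6 FPKM (log2 change -1.22). Calb2, the calcium-binding protein calretinin, went from 4.25 to 1.37 FPKM, a change of -1.56 that was close to that of Zic1. Trp73, a p53 relative that marks hem-derived Cajal-Retzius cells, went from 4.05 to 1.95 FPKM, and the transcription factor gene Ebf3 from 2.36 to 1.13 FPKM. Lhx5 went from 1.63 to 0.79 FPKM, with overlapping intervals, and reached 1 FPKM in the control alone. Nhlh2 went from 9.91 to 6.51 FPKM, a change of -0.60 that was only just past 1.5-fold. Of the 14 hem genes, 4 were tested and 3 of them were lower. The 3, all named after their values were seen, were Rspo3, an amplifier of Wnt signalling, at 11.8 and 6.26 FPKM, its relative Rspo1 with 34 and 4 fragments, and the Wnt ligand gene Wnt8b with 81 and 3 fragments. Of these, Rspo3 alone reached 1 FPKM in both libraries.

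Genes of the septum and rostral midline did not move one way. Of 16 genes listed, 12 were tested, of which 3 were higher, 1 was lower and 8 were within 1.5-fold, with a median of 0.07. The gene that was lower was Etv4, a transcription factor induced by Fgf signals, at 1.51 and 0.662 FPKM. Higher were Vax1, at 0.645 and 1.68 FPKM, Sp8, at 1.72 and 2.65 FPKM, and Six3, listed at 0 in the control and at 1.43 FPKM in the Rcor2cko library, the last named although its mean was under 1 FPKM. Of these 4, Sp8 alone reached 1 FPKM in both libraries. Six3 and Vax1 also stand in the list of the ventral telencephalon. Fgf8, the signal of the rostral patterning centre, was listed at 0 in both libraries, and Dmrta2, the most abundant gene of the list, was at 14.3 and 10.6 FPKM.

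Few meningeal genes could be tested, and those that passed 1.5-fold were higher. Of 22 listed, 6 were tested, 4 were more than 1.5-fold higher and none was lower, with a median of 0.75. Of the 4, 2 had passed the filter only through the Rcor2cko library. Over all 22 genes the median was 0.36, with 16 values above 0 and 6 below. The summed level of the 22 was 30.8 FPKM in the control and 46.3 FPKM in the Rcor2cko library. The 4 were Crabp2, a retinoic acid binding protein, at 2.18 and 7.30 FPKM, the chemokine gene Cxcl12 at 12.6 and 19.5 FPKM, the prostaglandin synthase gene Ptgds at 0.695 and 1.36 FPKM, and Pdgfra at 0.267 and 1.22 FPKM, which is named although its mean was under 1 FPKM. The last 2 are those that passed through a single library. These genes are not restricted to meninges. Of the untested genes, Foxc1, Dcn, Col1a1 and Col1a2 were named after their values were seen. Foxc1, a transcription factor that defines meningeal fibroblasts, was at 0.419 and 0.414 FPKM, from 30 and 40 fragments. Dcn, a matrix proteoglycan gene, was at 0.533 FPKM (0.275 to 0.792) in the control and 0.0985 FPKM (0 to 0.213) in Rcor2cko, without overlap. The collagen genes Col1a1 and Col1a2 went the other way. Col1a1 had 6 and 27 fragments, with an interval of the log2 ratio from 0.43 to 3.30. Col1a2 had 24 and 73 fragments, with an interval from 0.49 to 1.90, though its deposited FPKM intervals overlapped. In all, 16 of the 22 genes were under 1 FPKM in both libraries.

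Ventral genes were also higher in the library in which the Zic members were lower. Of 20 genes of the ventral telencephalon, 17 were tested and 14 were more than 1.5-fold higher, none lower, with a median of 1.68. Of the 14, 8 had passed the filter only through the Rcor2cko library, where they are high. The other 6, Dlx1, Dlx2, Dlx5, Sp9, Gad1 and Gad2, were among 9 genes at 1 FPKM or more in both libraries, whose median was 1.37. Of the 14, Gad2, an enzyme of GABA synthesis, was at 2.33 and 8.10 FPKM, and Isl1, a transcription factor of striatal precursors, was listed at 0 and at 2.23 FPKM. Meis2, the most abundant gene of the list, was at 60.3 and 67.2 FPKM.

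**Figure D5:**
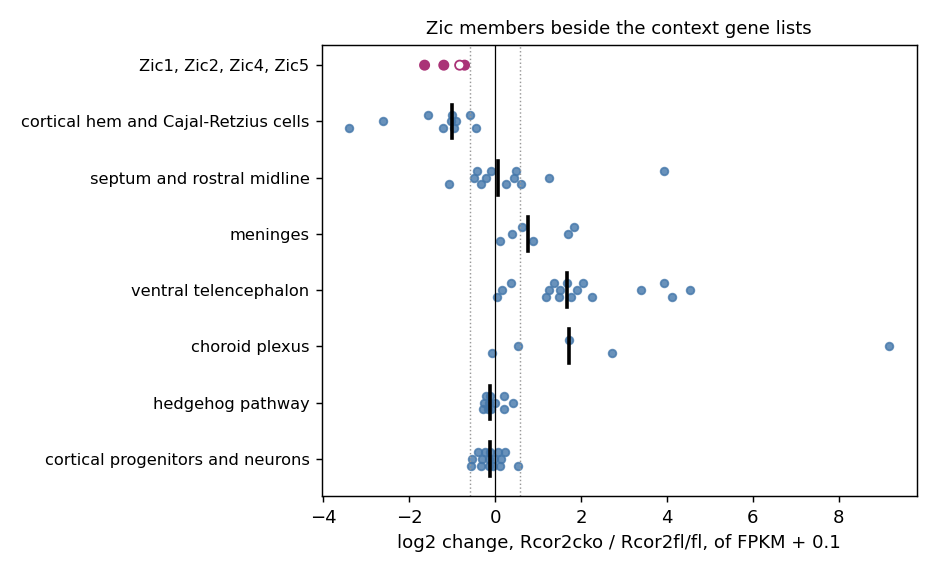
Log2 change of FPKM + 0.1 of the 4 members (purple, Zic4 open because it was not tested) and of the tested genes of 7 lists (blue), with black bars for the median of each list and dotted lines at 1.5-fold. The tested genes of the cortical hem and Cajal-Retzius list are all below 0, as are the members, while those of the meninges and the ventral telencephalon are all above 0.

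Choroid plexus, which develops next to the hem, was followed as a tissue that a dissection could include. Of 11 genes 5 were tested and 3 were higher, all 3 of which had passed the filter only through the Rcor2cko library. They were Aqp1, with 17 and 91 fragments, Kcne2, with 4 and 57 fragments, and Ttr, given below. Over all 11 genes the median was 1.17, with 10 values above 0 and 1 below. The 2 genes at 1 FPKM or more in both libraries, Foxj1, at 1.87 and 1.78 FPKM, and Enpp2, at 1.48 and 2.19 FPKM, were within 1.5-fold, with a median of 0.24. The summed level of the list was 4.64 FPKM in the control and 67.5 FPKM in the Rcor2cko library. Most of it was Ttr, a carrier of thyroid hormone made by the choroid plexus, which was listed at 0 and at 57.8 FPKM. Xist, the RNA that coats the inactive X chromosome of female cells, was at 177 FPKM in the control and 0.109 FPKM in Rcor2cko. By Xist, the control held RNA of female cells and the Rcor2cko library next to none, so that embryo sex differed along with genotype. With 1 library each, differences in dissection, in embryo sex and in genotype cannot be told apart. The part of the choroid plexus genes or of embryo sex in the values of the Zic genes was not tested. Among 12 genes of the diencephalon and eye field, 2 were tested and 1 was lower, Tcf7l2, at 1.63 and 1.0 FPKM, while Gbx2, Foxb1, Rax and Six6 were listed at 0 in both libraries. For the labelled tissue itself, all 16 genes of cortical progenitors and neurons were tested and none was past 1.5-fold, with a median of -0.12. Of the 16, 11 had log2 changes below 0 and 5 above. Their summed level was nonetheless 1735 FPKM in the control and 1811 FPKM in Rcor2cko. The most abundant in the control was the neuronal factor gene Neurod6, at 398.7 and 386 FPKM. In Rcor2cko it was Fabp7, at 372 FPKM in the control and 539 FPKM in Rcor2cko. Lhx2 and Neurod1 were lower, with log2 changes of -0.55 and -0.40. For Fabp7, Lhx2 and Neurod1 the deposited intervals of the libraries did not overlap. The sum thus does not show the direction of most of these genes. Rcor2, the targeted gene, was at 90.6 and 55.7 FPKM over the whole transcript, values that do not separate the floxed exons from the others.

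The genes most like each member were taken by the distance in mean log2 level and log2 change over the 2 libraries, which is a thin basis for likeness. For Zic1 they were the uncharacterised gene E330013P04Rik, at 4.70 and 1.62 FPKM, Calb2, and the serine protease gene Htra1, at 5.41 and 1.28 FPKM. For Zic2 they were Dmrt3, a DM domain transcription factor gene, at 4.88 and 2.99 FPKM, the AP-1 factor gene Fosl2, at 4.84 and 3.04 FPKM, and Crim1, at 5.26 and 3.23 FPKM. For Zic5 they were Ccdc3, at 1.23 and 0.511 FPKM, Fbln7, at 1.19 and 0.449 FPKM, and the histone gene Hist1h4h, at 1.31 and 0.566 FPKM. The search held only genes that reached 1 FPKM in at least 1 library, a level that Zic4 did not reach. The filter alone thus keeps every searched gene away from Zic4. That none lay within a distance of 1 of it says nothing of its pattern.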

How the data were processed

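RNA of the E13.5 VZ–SVZ was measured in 1 Rcor2fl/fl and 1 Rcor2cko library. The deposited values are FPKM with 95% bounds, given by the authors per RefSeq transcript (27641 rows, control) or per gene (21896 rows, Rcor2cko). Transcript length (nt) was also taken from the deposited files. The submitters' processing notes list TopHat 1.3.3, Cufflinks 1.2.0 and mm9, while the paper's methods name another TopHat release and Cuffdiff. A stranded mRNA kit was used.

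The rows of a gene were summed and log2 ratios of FPKM + 0.1 were taken, without further scaling. For the 14350 genes with status OK and a single transcript no shorter than 1000 nt, fragments were recovered as FPKM times length less an offset (194.1 nt and 200.9 nt). Of the values under 100 fragments, 99.3% and 99.4% came out within 0.1 of a whole number. A floor of 3 fragments corresponds to 0.0882 and 0.0654 FPKM for 2000 nt. The 95% intervals are Clopper-Pearson for a ratio and exact conditional for a ratio of ratios, and cover counting error only. The steps were tested on simulated data. With genes at 0 in 1 library set to that floor, no list median changed. Only the septal, ventral and choroid plexus lists held such tested genes. These lay at the upper end of their lists with either value, so a median could not move and the setting is no check of it.

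The members and gene lists were chosen with earlier results of these data known. Genes were named by rule: the members, the Gli genes, Rcor2 and Xist, and, of each list, the most abundant gene, markers at 0 and the largest changes past 1.5-fold with a mean of at least 1 FPKM. Six3, Pdgfra, Rspo1, Rspo3, Wnt8b, Foxc1, Dcn, Foxj1, Enpp2, Dlx1, Dlx5, Sp9 and Gad1, with Glis2, the pericyte gene Rgs5 and the neighbours, fell outside it and were named after their values were seen. The same holds for Col1a1, Col1a2, Lhx5, Nhlh2, Aqp1, Kcne2, Fabp7, Lhx2 and Neurod1. Lists share Bmp7, Foxd1, Six3, Vax1 and Gli1 to Gli3. The alternatives were other pseudocounts, scalings, filters and folds, and the highest row per gene. E15.5 was not analysed here, and some genes are not reported here. The tools were numpy 2.4.6, scipy 1.17.1, pandas 2.3.3 and matplotlib 3.10.9 under Python 3.11.15.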

Additional observations from a re-analysis of the deposited data

How the results depend on the processing

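No paired analysis was possible because each genotype has 1 library. The log2 changes of the 4 members stayed below 0 under all 7 alternatives run on them. Zic1 lay between -1.70 and -1.27, with the smallest change, -1.27, under a pseudocount of 1, Zic2 between -0.73 and -0.58, Zic4 between -1.11 and -0.26 and Zic5 between -1.35 and -0.60. The change of the Zic1 to Zic4 ratio lay between -1.02 and -0.59 and that of Zic2 to Zic5 between 0.02 and 0.62. Median, upper-quartile and quantile scaling moved the median of all genes by less than 0.1.

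The numbers of genes past 1.5-fold, higher and lower, were 446 and 207. They were 1287 and 672 with no filter, 262 and 128 for genes that reached 1 FPKM in both, 243 and 100 with a pseudocount of 1, 220 and 81 with non-overlapping 95% FPKM intervals, and 162 and 62 above 2-fold. Taking the highest row per gene gave 1214 higher, since only the control has several rows per gene.

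Median log2 changes of lists moved by over 0.1 as follows. With a pseudocount of 1 the hem and Cajal-Retzius median was -0.80, ventral 1.08, choroid plexus 0.83, meninges 0.54 and diencephalon -0.43. With no filter they were -0.70, 1.5, 1.17, 0.36 and 0 in the same order, the last no longer below 0. For genes that reached 1 FPKM in both, the ventral median was 1.37, choroid plexus 0.24, meninges 0.51 and septum -0.11. With no pseudocount ventral was 1.53, choroid plexus 1.28 and septum -0.11, and with a pseudocount of 0.01 ventral was 1.80 and choroid plexus 1.96. Quantile normalization gave 1.62 for choroid plexus. The highest row per gene turned the diencephalon median, which rests on 2 genes, to 0.40. The septal median thus lay on both sides of 0. Where no construction of the setting is named, the cause was not tested. Depth limits Zic4 most, with 32 and 20 fragments.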

Other observations

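Cells of the blood vessels and the blood, which a dissection of the VZ–SVZ also holds, were compared as well. All 9 tested genes of 10 of endothelium and pericytes had log2 changes above 0, none past 1.5-fold, with a median log2 change of 0.22 and summed levels of 43.1 and 49.4 FPKM. The pericyte gene Rgs5 was at 9.50 and 12.8 FPKM and the tight junction gene Cldn5 at 12.4 and 12.7 FPKM. Of 7 erythroid genes 5 were tested and 1 was lower by more than 1.5-fold, the adult beta-globin gene Hbb-b1, at 152.9 and 97.5 FPKM, with a median of -0.19 for the list. The adult beta-globin genes are close copies of each other, and how reads were assigned between them was not given in the sources used here.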
